A study of Rattus norvegicus with 6 samples.

Results

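The genes described here are 7 transcription factor genes that direct the osteoblast lineage, Runx1, Runx2, Runx3, Cbfb, Sp7, Twist1 and Twist2, chosen by name out of the 37203 gene symbols of a rat RNA sequencing count table. All 7 were in the table, and all 7 passed the filter on low counts that left 16066 genes for testing. The libraries were made from total RNA of alveolar tissue, the tooth-bearing bone of the jaw with what is attached to it, in rats whose teeth were moved orthodontically. The case group held 3 libraries (case 5, case 6 and case 9) and the control group 3 (control 5, control 6 and control 10). The source field gives the case libraries as tooth movement with no corticision and the control libraries as tooth movement plus corticision, a surgical incision into the cortical bone. In their usual sense the words case and control would point the other way, so groups are named by title, and each difference is case minus control. There was no library of unmoved teeth. The labels used here do not give strain, age, sex or time of sampling, nor whether each library is a separate animal, and p-values therefore reflect only how these libraries scattered, which can include technical variation.

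Bone formation starts when mesenchymal precursors express RUNX2, a DNA-binding protein of the Runt family without which no osteoblasts form in mice. RUNX proteins bind DNA as dimers with CBFB, a partner that does not itself contact DNA and raises their affinity for it. SP7, also called osterix, is a zinc finger factor that acts downstream of RUNX2 and is likewise needed for osteoblasts in mice. TWIST1 and TWIST2 are basic helix-loop-helix proteins of mesenchymal precursors that bind the Runt domain of RUNX2 and restrain it in mouse bone. RUNX1 is best known in blood stem and myeloid cells and RUNX3 in T cells and natural killer cells, and both are also found in skeletal tissue. In bulk tissue, fewer cells of a type and less RNA per cell cannot be told apart.

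Runx2 and Runx3 each have more than one transcription start, and the deposited table has 1 count per symbol, which does not separate transcripts by start, so the windows around these starts are shown. RefSeq windows of assembly GRCr8, each with 250 bases before a start and 50 after it, were found for 6 of the 7 genes, 8 windows in all (Sp7 had no entry). They were searched on both strands for the RUNX-binding letters TGTGGT, which read as ACCACA on the other strand, and for the variant TGCGGT, which reads as ACCGCA there, and matches are in capitals below. The Runx2 window at the first start lies at chr9:23664808-23665107 and that at the second start at chr9:23742990-23743289, the first Runx3 window at chr5:152644020-152644319, all on the plus strand, and the Bglap window at chr2:176137269-176137568 on the minus strand. Bglap, which encodes osteocalcin, is shown as a textbook target of RUNX2 and was chosen after the matches were known: of the 5 bone target windows searched, those of Bglap and Mmp13 held 1 match to TGTGGT each, and those of Ibsp, Spp1 and Alpl held 0. The Spp1 window held 1 match to the variant TGCGGT, beginning at base 125, and those of Bglap, Mmp13, Ibsp and Alpl held 0.
Runx2 first start: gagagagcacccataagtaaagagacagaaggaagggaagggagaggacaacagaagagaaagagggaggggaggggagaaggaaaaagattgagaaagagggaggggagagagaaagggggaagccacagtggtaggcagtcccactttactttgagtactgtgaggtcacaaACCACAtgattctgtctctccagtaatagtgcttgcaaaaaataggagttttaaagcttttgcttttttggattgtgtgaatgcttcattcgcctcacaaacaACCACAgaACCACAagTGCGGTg
Runx2 second start: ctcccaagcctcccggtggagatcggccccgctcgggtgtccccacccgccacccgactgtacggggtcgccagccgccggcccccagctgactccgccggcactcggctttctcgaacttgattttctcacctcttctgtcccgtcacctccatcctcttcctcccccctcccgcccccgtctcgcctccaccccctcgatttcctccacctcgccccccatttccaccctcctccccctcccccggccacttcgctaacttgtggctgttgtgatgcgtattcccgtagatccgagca
Runx3 first start: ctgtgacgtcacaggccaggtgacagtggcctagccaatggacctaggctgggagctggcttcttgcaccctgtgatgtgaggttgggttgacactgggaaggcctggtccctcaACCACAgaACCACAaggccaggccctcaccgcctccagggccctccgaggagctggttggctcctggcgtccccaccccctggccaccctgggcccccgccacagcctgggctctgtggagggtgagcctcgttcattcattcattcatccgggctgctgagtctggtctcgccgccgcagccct
Bglap: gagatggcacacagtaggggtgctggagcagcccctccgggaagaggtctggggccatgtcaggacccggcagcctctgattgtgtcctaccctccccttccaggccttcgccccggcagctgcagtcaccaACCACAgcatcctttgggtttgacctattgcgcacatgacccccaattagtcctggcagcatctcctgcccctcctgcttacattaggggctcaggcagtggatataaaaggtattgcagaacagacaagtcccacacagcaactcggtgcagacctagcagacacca
The first Runx2 window held 3 matches to TGTGGT, beginning at bases 175, 278 and 286 of the 300, and 1 to TGCGGT at base 294. The second Runx2 window held 0 of either, so the starts that share the Runx2 symbol differ in these letters. The first Runx3 window held 2 matches, at bases 116 and 124, and the Bglap window 1, at base 133. No match shared a base with another. Of the 8 windows of these genes, 2 held TGTGGT, and among 33469 windows of the same length 17.3% held it, 2.02% at least 2 times and 0.209% at least 3 times, while 6.39% held TGCGGT. The first windows of Runx2 and Runx3 shared a run of 18 bases, CAACCACAGAACCACAAG, beginning at base 276 in Runx2 and at base 114 in Runx3, and these 2 windows were the only ones of the 33469 with that run on either strand. Runx1 had 1 start among these windows, and any other start of it was not searched. The matches are letters in a window and do not show that a protein binds there.

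Library totals were 10886303 to 14433740 counts, and the 7 genes had between 13 and 1618 counts in a library. Levels are in CPM, counts scaled to a common library size by the trimmed mean of M-values (TMM), and they are compared between libraries of a gene but not between genes, since transcript lengths were not used. The 9 osteoblast marker genes examined were all present, with summed levels of 149200, 77200 and 73290 CPM in case 5, 6 and 9, against 86990, 125400 and 127900 CPM in control 5, 6 and 10. The libraries numbered 5 stood apart in many genes. Markers of tooth-forming cells summed to 460 CPM in case 5 and 2.93 and 2.35 CPM in case 6 and 9, against 89.8 CPM in control 5 and 7.79 and 0.640 CPM in control 6 and 10. Markers of oral epithelium summed to 3502 CPM in control 5 and to between 18.3 and 48.2 CPM in the other 5 libraries. Markers of skeletal muscle summed to 114, 359 and 1246 CPM in case 5, 6 and 9, against 9.28, 986 and 1007 CPM in control 5, 6 and 10.

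The question between the groups was whether any of these factors differed with corticision. No call was made for any of the 7 genes. After quasi-likelihood fits in edgeR, 0 of them passed Benjamini-Hochberg adjustment over all 16066 genes at 0.05, each with an adjusted p of 0.999, and 0 at an unadjusted p under 0.05; DESeq2 and limma-voom also called 0 of the 7. Over all tested genes edgeR called 0.0% after adjustment and 4.15% at the unadjusted threshold, DESeq2 called 0.131% after adjustment and limma-voom 0.0%. The fitted log2 fold changes ran from -0.44 (Twist1) to 0.62 (Twist2), with 4 positive and 3 negative and a median of 0.15, against a median of -0.02 and 46.4% positive over all tested genes. The median of the 7 was -0.23 without case 5. The 95% intervals all included 0 but were wide enough to leave room for changes of some size: they ran from 0.894 to 1.37-fold for Runx1, the narrowest, and from 0.684 to 3.46-fold for Twist2, the widest.

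**Figure D1:**
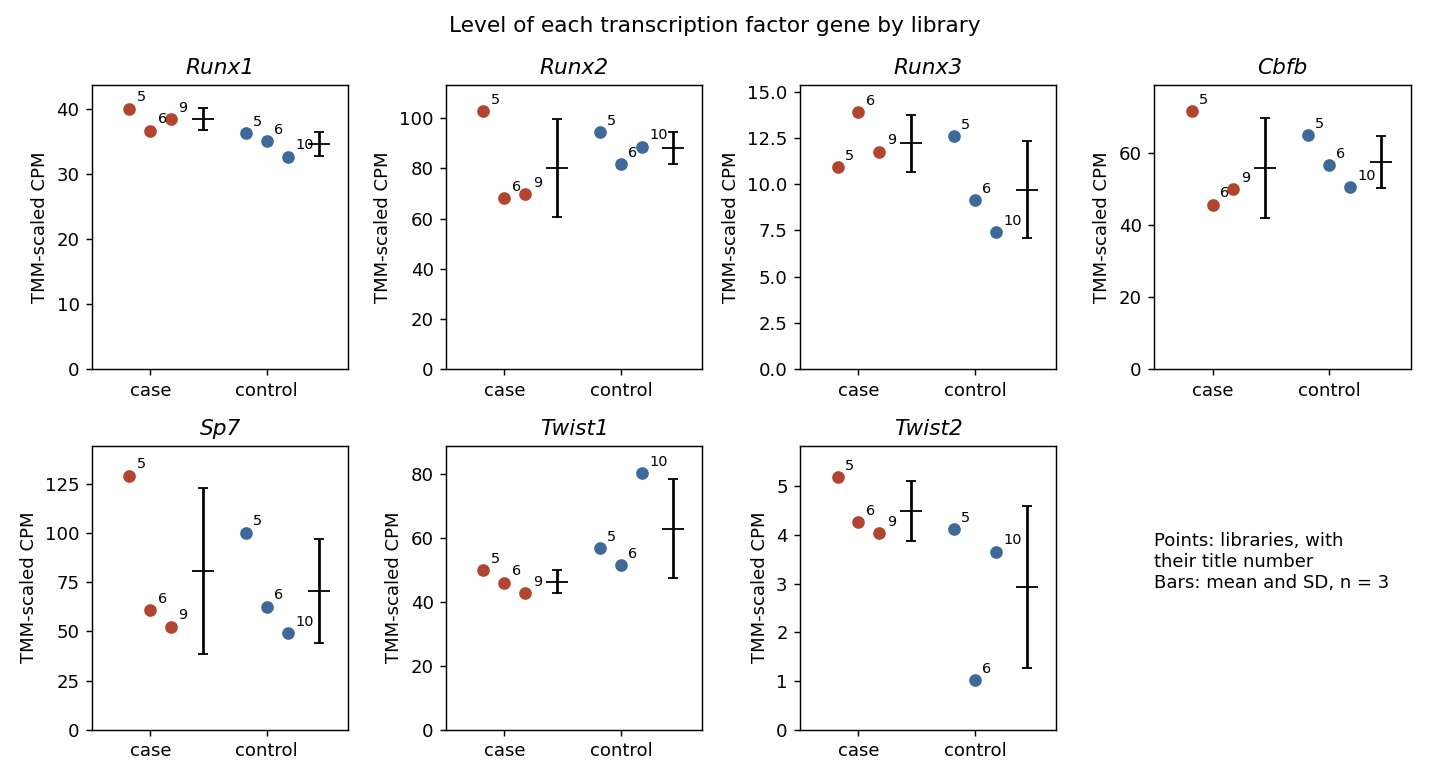
Level of each gene in TMM-scaled CPM (vertical axis, starting at 0) in the 3 case and 3 control libraries; points carry the title number, and the bar beside each group is its mean with SD (n = 3). Case 5 and control 5 are the 2 highest points for Runx2, Cbfb and Sp7, and control 6 is the low point for Twist2 at 1.02 CPM.

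Runx2, the factor that commits precursors to the osteoblast lineage, was at 103, 68.2 and 69.9 CPM in case 5, 6 and 9, against 94.4, 81.6 and 88.7 CPM in control 5, 6 and 10. Case 5 was the highest library and case 6 and case 9 the lowest, so the case group enclosed the control group. The mean was 80.3 ± 19.5 CPM over the case libraries and 88.2 ± 6.38 CPM over the control libraries (errors of means are SDs throughout, n = 3 per group), with an edgeR log2 fold change of -0.14 (SE 0.19, 95% interval -0.58 to 0.31). The spread within case, a coefficient of variation of 24.3%, was more than that within control, 7.23%, and without case 5 the log2 fold change was -0.33 (SE 0.13), still with an edgeR adjusted p of 0.523. In the RefSeq table Runx2 overlaps Supt3h, a gene for a subunit of transcription coactivator complexes, and the long noncoding RNA LOC120094793, while Cbfb overlaps the pseudogene Rpl27-ps10, and the labels used here do not say whether counting used strand. Supt3h was at 14.9, 14.2 and 17.99 CPM in case 5, 6 and 9, against 14.8, 16.1 and 13.3 CPM in control 5, 6 and 10, and the part of shared reads in the Runx2 and Cbfb counts was not tested.

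Cbfb, the DNA-affinity partner shared by the RUNX proteins, was at 71.7, 45.8 and 50.2 CPM in case 5, 6 and 9, against 65.2, 56.7 and 50.7 CPM in control 5, 6 and 10. The groups overlapped, with case 5 and control 5 on top. The means were 55.9 ± 13.9 CPM in case and 57.5 ± 7.28 CPM in control, a log2 fold change of -0.04 (SE 0.21, 95% interval -0.52 to 0.44) whose sign turned when case 6, case 9 or control 5 was left out. Of all 21 pairings of these genes, Cbfb and Runx2 had the most similar profiles: after each gene was centred on its own mean, they differed by a root mean square of 0.11 in log2 CPM over the 6 libraries. The next pairing, Runx1 with Cbfb, differed by 0.20 and the most distant, Twist1 with Twist2, by 0.78. Genes that vary little lie close to each other by this measure. Among 10764 other genes the median gene differed by 0.31 from Runx2 and by 0.31 from Cbfb. Some of them were closer than 0.11, such as Ccdc6 to Runx2 (0.028) and Lpin2 to Cbfb (0.022). The count of Cbfb relative to that of Runx2, a ratio that needs no scaling between libraries, was 0.698, 0.671 and 0.718 in case 5, 6 and 9, against 0.691, 0.694 and 0.572 in control 5, 6 and 10. It thus lay within a narrow band in 5 libraries, with control 10 below them.

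Sp7, the osteoblast factor downstream of RUNX2, spread further. Its level was 129, 60.8 and 52.5 CPM in case 5, 6 and 9, against 100.3, 62.7 and 49.2 CPM in control 5, 6 and 10. The libraries numbered 5 of both groups were the 2 highest, and the other 4 lay close together. The means were 80.8 ± 42.2 CPM in case and 70.7 ± 26.5 CPM in control, with a log2 fold change of 0.19 (SE 0.40, 95% interval -0.73 to 1.12) that was -0.29 without case 5 and 0.53 without control 5. The ratio of Sp7 to Runx2 counts was 1.26, 0.892 and 0.751 in case 5, 6 and 9, against 1.06, 0.768 and 0.555 in control 5, 6 and 10, so the libraries numbered 5 were again on top after Runx2 was taken as the measure.

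This order by title number was shared by Runx2, Cbfb and Sp7: in these 3 of the 7 genes both libraries numbered 5 lay above all 4 others, and in 0 of the 7 they lay below. Over all tested genes the share above was 20.0% and the share below 17.8%, 37.8% in all, so an order of this kind was common in these libraries. The number 5 mean over that of the other 4 libraries was 115 against 56.3 CPM for Sp7 (2.04-fold), 68.5 against 50.8 CPM for Cbfb (1.35-fold) and 98.6 against 77.1 CPM for Runx2 (1.28-fold). The same 2 libraries held the highest summed levels of the tooth-forming cell markers and the lowest of the muscle markers, of which 7 of 8 lay below the other 4 libraries. Of the 8 tooth-forming markers 3 passed the count filter, Ambn and Dspp mainly by their counts in the libraries numbered 5. That these 3 lay above the other 4 libraries was thus partly set by the filter. Of the untested markers Enam, Amtn and Klk4 lay above as well, and Amelx and Mmp20 did not. The summed osteoblast markers did not follow this order, since control 6 and control 10 exceeded control 5. Col1a1, Col1a2 and Sparc made up most of that sum in every library. Of the 9 osteoblast markers 0 lay above and 2 below in both libraries numbered 5. The summed osteocyte markers did follow this order. Their sum was 5893 CPM for control 5 and 4655 CPM for case 5, while the other 4 libraries ranged from 3536 to 4540 CPM. Of the 6 tested osteocyte markers 1 lay above and 0 below. The part of tissue makeup in the Sp7, Cbfb and Runx2 levels was not tested, and the comparison follows a title number whose meaning the labels do not give.

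**Figure D2:**
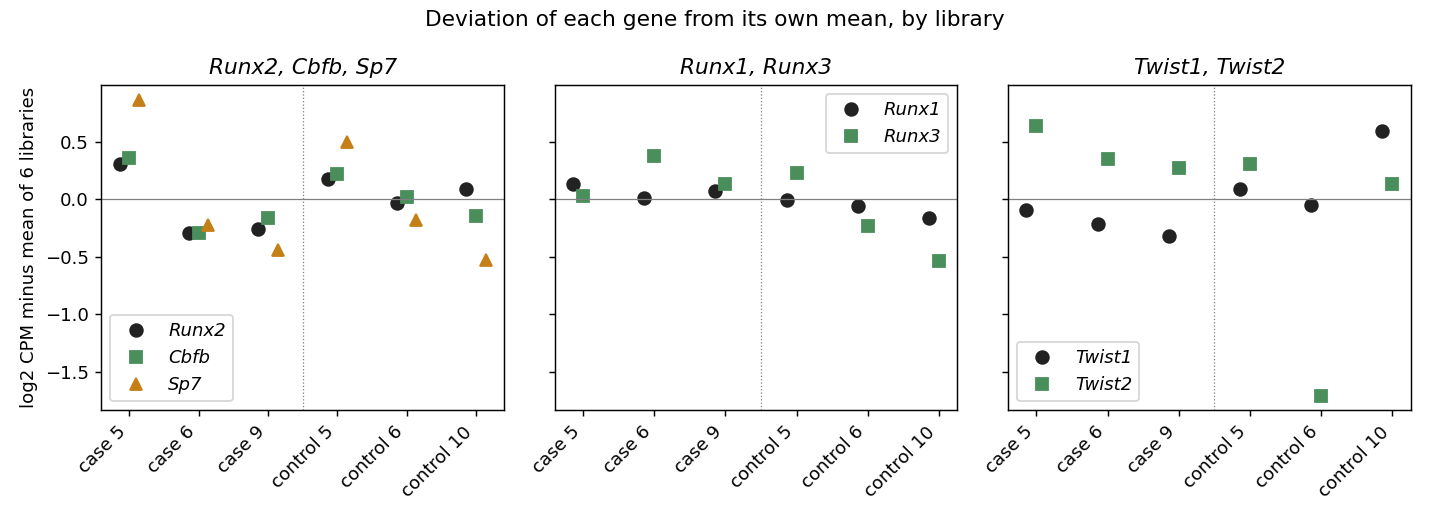
Log2 CPM of each gene minus its mean over the 6 libraries (vertical axis) for every library (horizontal axis, case left of the dotted line and control right of it), with symbols for genes. Runx2, Cbfb and Sp7 are above their means in case 5 and control 5, Runx1 stays within a narrow band, and Twist1 and Twist2 lie farthest from each other in control 6.

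Runx1, the family member of blood stem and myeloid cells, was at 40.0, 36.7 and 38.4 CPM in case 5, 6 and 9, against 36.2, 35.0 and 32.6 CPM in control 5, 6 and 10. All 3 case libraries lay above all 3 control libraries, by a margin of less than the counting error: case 6, with 551 counts, had an exact 95% Poisson interval of 33.7 to 39.9 CPM, and control 5, with 414 counts, one of 32.8 to 39.9 CPM. The means were 38.4 ± 1.69 CPM in case and 34.6 ± 1.84 CPM in control, with a log2 fold change of 0.15 (SE 0.13, 95% interval -0.16 to 0.46). It was the steadiest of the 7 genes over the 6 libraries, with an SD of 0.10 in log2 CPM that only 3.28% of tested genes undercut. Groups that did not overlap occurred in 8.47% of tested genes, 4.05% higher and 4.42% lower in case, and among these 7 genes in Runx1 (higher) and Twist1 (lower). Markers of mast cells, which are blood-derived, summed to 51.3, 101 and 69.7 CPM in case 5, 6 and 9, against 40.9, 41.2 and 48.4 CPM in control 5, 6 and 10, also without overlap. Of the 5 mast cell markers 3 had groups that did not overlap. The summed markers of neutrophils and myeloid precursors, macrophages, osteoclasts, T and natural killer cells, B cells, and erythroid cells and megakaryocytes all overlapped between the groups. The part of mast cells or other blood-derived cells in the Runx1 level was not tested.

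Runx3, the member of T and natural killer cells, was at 10.9, 13.9 and 11.8 CPM in case 5, 6 and 9, against 12.6, 9.13 and 7.40 CPM in control 5, 6 and 10. Control 5 lay inside the case range and the other 2 control libraries below it. The means were 12.2 ± 1.53 CPM in case and 9.71 ± 2.65 CPM in control, a log2 fold change of 0.33 (SE 0.26, 95% interval -0.27 to 0.93). With both libraries numbered 5 left out it was 0.68 (SE 0.23), with an unadjusted edgeR p of 0.0257 and an adjusted p of 0.297. In that fit 2294 of 16298 tested genes had an unadjusted edgeR p under 0.05, a larger share than the 4.15% with all 6 libraries. Markers of T and natural killer cells summed to 351, 519 and 519 CPM in case 5, 6 and 9, against 312, 412 and 337 CPM in control 5, 6 and 10; all 10 tested markers had a positive fold change and 0 of the 10 had groups that did not overlap. Cd4 and Nkg7 made up most of the summed level in every library, and Cd3e, Cd3d and Cd3g little of it. The part of T and natural killer cells in the Runx3 level was not tested.

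Twist1, which restrains RUNX2 in precursors, had the smallest p of the 7. It was at 49.9, 46.0 and 42.8 CPM in case 5, 6 and 9, against 56.9, 51.5 and 80.4 CPM in control 5, 6 and 10. All 3 case libraries lay below all 3 control libraries, control 10 far above the rest. The means were 46.2 ± 3.58 CPM in case and 62.9 ± 15.4 CPM in control, a log2 fold change of -0.44 (SE 0.19, 95% interval -0.90 to 0.01) with an unadjusted edgeR p of 0.0545. Without control 10 the log2 fold change was -0.19 (SE 0.17), and with the title number as a block it was -0.17 (SE 0.16). In that block neither case 9 nor control 10 has a partner, so its group difference rests on the libraries numbered 5 and 6. With libraries scaled by their totals alone the groups overlapped. Markers of periodontal ligament and fibroblasts, the connective tissue between tooth and bone, summed to 5107, 2983 and 3572 CPM in case 5, 6 and 9, against 4552, 4308 and 6413 CPM in control 5, 6 and 10, with a negative fold change in 7 of 7 genes and control 10 highest, as for Twist1. Markers of endothelium summed to 511, 444 and 399 CPM in case 5, 6 and 9, against 524, 533 and 579 CPM in control 5, 6 and 10, without overlap and again with control 10 highest. All 7 endothelial markers had a negative fold change. Of these 3 had an unadjusted edgeR p under 0.05, where 364 of 16066 tested genes were lower in case at that threshold. Groups that did not overlap occurred in 2 of the 7, against 4.42% of tested genes lower in case. The part of both cell types in the Twist1 level was not tested.

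Twist2, the close relative of Twist1, was the lowest in counts, with 65, 64 and 48 counts in case 5, 6 and 9, against 47, 13 and 40 counts in control 5, 6 and 10. In CPM these were 5.19, 4.26 and 4.03 in case 5, 6 and 9, against 4.11, 1.02 and 3.66 in control 5, 6 and 10. Control 6 stood below all others, with an exact 95% Poisson interval of 0.545 to 1.75 CPM for its 13 counts, and control 5 lay just inside the case range. The means were 4.495 ± 0.615 CPM in case and 2.93 ± 1.67 CPM in control, a log2 fold change of 0.62 (SE 0.50, 95% interval -0.55 to 1.79) that was 0.24 without control 6. Scaled by the size factors of DESeq2 or by upper quartiles, the groups did not overlap.

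The fitted fold changes of Twist1 and Twist2 had opposite signs, and their ratio needs no scaling between libraries. The count of Twist2 relative to that of Twist1 was 0.104, 0.0925 and 0.0943 in case 5, 6 and 9, against 0.0723, 0.0199 and 0.0455 in control 5, 6 and 10. All 3 case libraries lay above all 3 control libraries, and the difference in log2 ratio was 1.26, or 0.76 without control 6. The two-sided exact permutation p was 0.1, the smallest that 3 libraries against 3 allow, and 0.5 after Benjamini-Hochberg adjustment over the 6 ratios computed, which were added after the values had been seen. The ratio of Twist1 to Runx2, restrainer to target, overlapped: it was 0.486, 0.675 and 0.613 in case 5, 6 and 9, against 0.603, 0.631 and 0.907 in control 5, 6 and 10. So did Runx1 to Runx2 (0.492 ± 0.0894 in case, 0.394 ± 0.0317 in control) and Runx3 to Runx1 (0.320 ± 0.0542 in case, 0.279 ± 0.0624 in control).

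**Figure D3:**
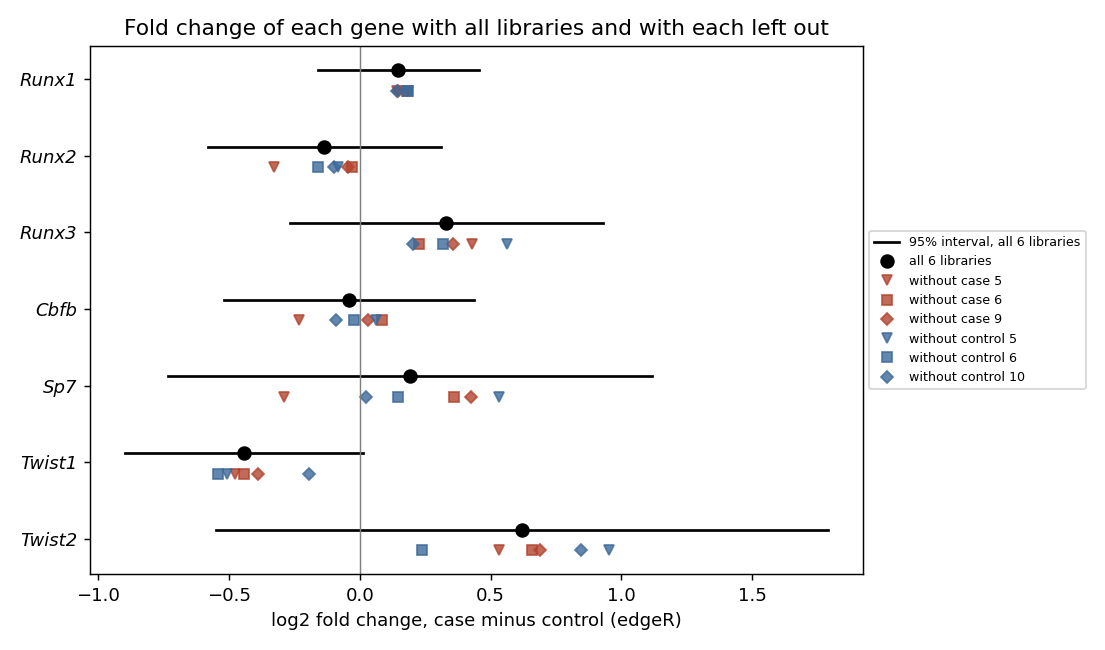
Log2 fold change of each gene, case minus control (horizontal axis, edgeR), with all 6 libraries (black point and 95% interval) and with each library left out (coloured symbols). Every interval includes 0, Runx1 moves least when a library is left out, and Sp7 and Cbfb have symbols on both sides of 0.

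For each gene the 3 most similar profiles were sought among 10764 other genes averaging 5 CPM or more, by the root mean square difference in centred log2 CPM over the 6 libraries. For Sp7 they were Mlxip, a glucose-sensing transcription factor gene (0.068), Cadm1, a cell adhesion gene (0.089), and Arid1b, a chromatin remodelling subunit gene (0.091), where the median gene differed by 0.54. Cadm1 was at 90.4, 47.4 and 40.3 CPM in case 5, 6 and 9, against 78.8, 44.4 and 41.1 CPM in control 5, 6 and 10, in which the number 5 libraries are again on top. For Twist1 they were Serpinb8, a protease inhibitor gene (0.056), Kcnj8, a potassium channel gene of mural cells (0.062), and Colec12, a scavenger receptor gene (0.069), against a median of 0.37. Colec12 was at 139, 132 and 113 CPM in case 5, 6 and 9, against 162, 149 and 204 CPM in control 5, 6 and 10, with control 10 highest as for Twist1. For Runx2 they were Ccdc6 (0.028), Magt1 (0.035) and Ireb2 (0.039), for Cbfb Lpin2 (0.022), Atg13 (0.033) and Nanp (0.035), for Runx1 Neil1 (0.027), Abcb8 (0.034) and Depdc5 (0.035), and for Runx3 Wdr18 (0.050), Mthfd1 (0.066) and Vars (0.067). The closest profile to that of Twist2, Thsd4, was at 0.31, against a median of 0.75, so no gene compared followed Twist2 as closely as others followed the rest. Twist2 averaged 3.71 CPM, below the 5 CPM asked of the genes compared, and the part of counting error in this distance was not tested.

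Genes that act with these factors were read from 5 lists, and 0 members of any list were called by edgeR after adjustment over all genes. Among cofactors and modifiers of RUNX proteins, 23 of 37 tested genes had a positive and 14 a negative value, with a median log2 fold change of 0.10 that was -0.04 without case 5 and 0.21 without control 5, and 0 had an unadjusted p under 0.05. Tle1, a corepressor, was at 15.4, 13.3 and 14.2 CPM in case 5, 6 and 9, against 21.4, 15.4 and 17 CPM in control 5, 6 and 10. Hdac5, a deacetylase that represses RUNX2, was at 158, 153 and 140 CPM in case, against 144, 124 and 118 CPM in control. Pparg, the adipocyte factor that opposes RUNX2, was the 1 gene of the list whose groups did not overlap, 2.70% of the list against 8.47% of all tested genes. It was at 11.3, 21.4 and 12.02 CPM in case 5, 6 and 9, against 8.84, 11.1 and 10.5 CPM in control 5, 6 and 10. In this list 17 of the 37 genes lay higher and 2 lower in both libraries numbered 5 than in the other 4, against 20.0% higher and 17.8% lower of all tested genes.

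Among other transcription factors of osteoblasts, 6 of 19 tested genes had a positive and 13 a negative value, with a median log2 fold change of -0.04 that was 0.01 when libraries were scaled by their totals, -0.34 without case 5 and 0.04 without case 9. Zbtb16, which encodes the zinc finger factor PLZF and acts upstream of RUNX2 in cultured human precursors, stood out by its values. It had 64, 72 and 55 counts in case 5, 6 and 9, against 24, 20 and 13 counts in control 5, 6 and 10, or 5.11, 4.79 and 4.62 CPM against 2.10, 1.57 and 1.19 CPM. Every case library held more than 2 times the level of any control library, and Runx2 showed no such order. The log2 fold change was 1.57 (SE 0.33), between 1.43 and 1.80 over the 16 alternatives, with an unadjusted edgeR p of 0.00178 and an adjusted p of 0.999, and with an adjusted p between 0.0767 and 1.0 over the alternatives. Atf4, a factor of late osteoblasts, was at 239, 283 and 246 CPM in case, against 294, 306 and 324 CPM in control, without overlap, and Vdr, the vitamin D receptor gene, at 106, 51.7 and 73.6 CPM against 62.5, 48.6 and 49.7 CPM, with overlap.

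Among the dimer partners of TWIST proteins and the Id proteins that take those partners away, 5 of 7 tested genes had a positive and 2 a negative value, with a median log2 fold change of 0.09 (-0.07 without case 6). The E protein genes Tcf3 and Tcf12 were at 130 ± 37.1 and 55.1 ± 11.7 CPM in case and 107 ± 33.5 and 66.6 ± 14.4 CPM in control. Id4 had the smallest p of the list, at 4.55, 4.92 and 3.03 CPM in case 5, 6 and 9, against 9.80, 4.88 and 13.1 CPM in control 5, 6 and 10. Control 10 was highest in Id4 as in Twist1, while control 6 lay inside the case range. Its log2 fold change was -1.14 (SE 0.40) with an unadjusted edgeR p of 0.0238. It was -0.78 (SE 0.42) without control 10 and -0.55 (SE 0.41) with the title number as a block, with unadjusted edgeR p of 0.112 and 0.237.

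Of the bone genes that RUNX2 and SP7 activate, 6 of 18 tested had a positive and 12 a negative value, with a median log2 fold change of -0.22, which was -0.04 without case 9 and -0.35 without case 5; 0 had an unadjusted p under 0.05. Vegfa, the vessel growth factor gene, was at 88.8, 90.3 and 81.3 CPM in case 5, 6 and 9, against 125, 91.2 and 116 CPM in control 5, 6 and 10, without overlap, as was Spp1, the osteopontin gene, at 3663, 3762 and 3509 CPM against 5021, 4473 and 5450 CPM. Sost, the osteocyte gene for the bone formation inhibitor sclerostin, was at 179, 209 and 160 CPM in case 5, 6 and 9, against 219, 104 and 66.7 CPM in control 5, 6 and 10, with control 5 above all other libraries. Its log2 fold change was 0.49 (SE 0.40), and 1.10 (SE 0.24) without control 5, with an unadjusted edgeR p of 0.00285 and an adjusted p of 0.390. In the fit without control 5, 1215 of 16596 tested genes had an unadjusted edgeR p under 0.05. Leaving out control 10 gave Sost a log2 fold change of 0.21 (SE 0.33). Bglap, whose window is printed above, was at 5976, 2422 and 3323 CPM in case 5, 6 and 9, against 3207, 4939 and 3412 CPM in control 5, 6 and 10. Its log2 fold change of 0.02 took either sign over the alternatives, and its highest libraries were case 5 and control 6, where those of Sp7 were case 5 and control 5. Of these 18 target genes 3 lay higher and 2 lower in both libraries numbered 5, which is near or below the shares of 20.0% and 17.8% over all tested genes.

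Of the genes that RUNX1 and RUNX3 regulate in blood cells, 11 of 13 tested had a positive and 2 a negative value, with a median log2 fold change of 0.55, and 4 had an unadjusted edgeR p under 0.05, all 4 higher in case, where 1.88% of all tested genes were. Mpo, the myeloperoxidase gene of neutrophil precursors, was at 1392, 2286 and 2476 CPM in case 5, 6 and 9, against 845, 1495 and 1114 CPM in control 5, 6 and 10. Itgal, an integrin gene of leukocytes, was at 123, 158 and 136 CPM in case, against 90.8, 118 and 84.4 CPM in control, without overlap, and Cebpe, a factor of granule formation, at 36.3, 67.2 and 77.6 CPM against 26.3, 45.02 and 31.4 CPM, with overlap. Markers of neutrophils and myeloid precursors summed to 9171, 16280 and 19860 CPM in case 5, 6 and 9, against 7048, 20350 and 16250 CPM in control 5, 6 and 10, with 4 of 8 tested markers lower in both libraries numbered 5 than in the other 4. S100a8 and S100a9 made up most of this sum, with log2 fold changes of 0.10 and -0.12. The granule protease genes Elane and Prtn3 had 0.72 and 0.73 and Mpo 0.83, while Camp, Ngp and Mmp8 had -0.31, -0.10 and 0.12. Of the 8 tested neutrophil and myeloid precursor markers 5 had a positive and 3 a negative fold change, with a median on the log2 scale of 0.11. Of the 10 tested T and natural killer cell markers 10 had a positive fold change, with a median on the log2 scale of 0.76, and of the 5 tested macrophage markers 4 did, with a median of 0.34. The lists are not separate, since Mpo, Elane, Csf1r, Cd4, Cd8a and Prf1 stand both among the targets and among these markers. The part of these cells in the values of the blood target genes was not tested. The unadjusted count of target genes was 0 without case 6, control 5 or control 10, 1 without case 9 and 9 without case 5. Over all tested genes it was 367 of 16479, 1215 of 16596 and 401 of 16617 without case 6, control 5 or control 10. It was 473 of 16676 without case 9 and 1566 of 16413 without case 5. Without control 6, where it was 695 of 16446, Mpo, Itgal and Cebpe had unadjusted edgeR p of 0.018, 0.00798 and 0.0171.

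**Figure D4:**
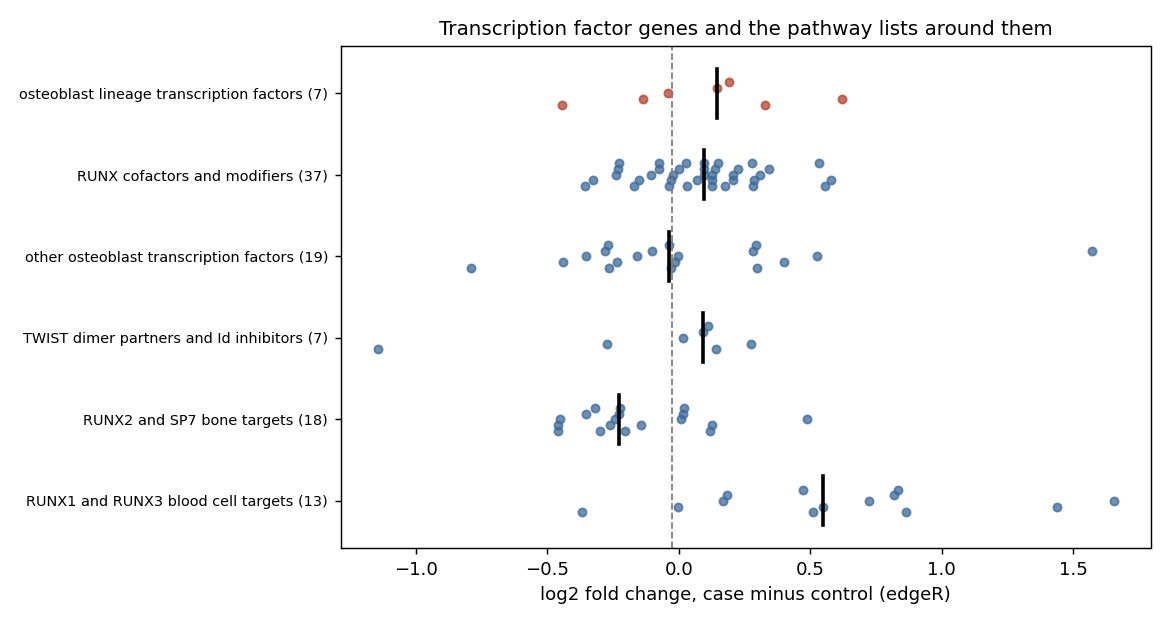
Log2 fold change, case minus control (horizontal axis, edgeR), of the 7 transcription factor genes (top row) and of the tested genes in the 5 lists around them (number in brackets); black bars are list medians and the dashed line the median of all tested genes. The blood cell targets have the highest median, 0.55, the bone targets the lowest, -0.22, and the isolated point at 1.57 is Zbtb16.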

How the data were processed

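TRIzol was used to extract RNA from rat alveolar tissue, and an Ion Total RNA-Seq kit to prepare libraries for reading from 1 end, per the labels' protocols. Whole counts by gene symbol for the 6 libraries are in 1 deposited table, with no sign of normalization in its values. Aligner, counter, build and strandedness were not given in the sources used here, so reads of overlapping genes could have been shared. Columns were matched to libraries by title.

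Genes were filtered with filterByExpr, scaled with TMM and compared by quasi-likelihood F-tests in edgeR 4.0.16 (R 4.3.3), with group as the design and a Benjamini-Hochberg threshold of 0.05 over all 16066 genes. DESeq2 1.42.0, limma-voom (limma 3.58.1), other scalings and filters, each library left out, and the title number as a block or covariate were alternatives. Log2 CPM used a prior count of 2. The test was tried on simulated counts first. The median log2 fold change of all genes was -0.02 with TMM and 0.02 with library totals. Intervals of counts are exact Poisson at 95% and cover counting error only; a count of 0 allows 3 counts, or 0.2 to 0.274 CPM. The 7 genes and the 5 pathway lists were chosen with earlier results of these data known, and the ratios between genes were added after the values were seen. The genes named were the 7, some of the 3 with the smallest p and the 3 with the highest mean CPM in each list, and for each of the 7 the 3 most similar profiles among genes of at least 5 CPM. Bglap and Supt3h fall outside this rule and were chosen after their values were seen. Sequences are from RefSeq, assembly GRCr8, matched by symbol.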

Additional observations from a re-analysis of the deposited data

How the results depend on the processing

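Of the 7 transcription factor genes 0 were called under each of the 16 alternatives, and the smallest adjusted p was 0.297 (Runx3 without both libraries numbered 5). Over all genes edgeR called 0, DESeq2 21, and leave-one-out fits 0 to 2, the 2 being without control 5. Runx1, Runx2, Runx3, Twist1 and Twist2 had 1 direction in all 16 alternatives. The Cbfb log2 fold change of -0.04 ranged from -0.23 to 0.083 and that of Sp7 from -0.29 to 0.53 with 1 library left out. That of Bglap ranged from -0.40 to 0.27 with 1 library left out, and was -0.045 in limma-voom, -0.069 with the number 5 as a covariate and -0.50 without both libraries numbered 5. The genes with groups that did not overlap numbered 2 of the 7 with TMM (8.47% of all tested genes), 3 with DESeq2 size factors (8.72%) or upper-quartile scaling (8.54%) and 1 with library totals (8.07%), a check added after the data were seen. The causes were not tested. Numbers 5 and 6 occur in both groups, but the labels do not say that they pair samples. Equal-numbered libraries had correlated deviations from their group means (0.38 for number 5, 0.136 for number 6, across 16066 genes, which are not independent). With the number as a replicate block 0 genes were called, 653 against 666 had an unadjusted edgeR p under 0.05, and Bglap was at -0.065. Twist2 had 13 to 65 counts a library, the fewest of the 7.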
